A study of Homo sapiens with 8 samples.

Results

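Transcripts of 9 genes that are widely used to describe the mesenchymal state of a cell were followed in DU145 and PC3 cells with and without added TRIB1. The genes are ZEB1, ZEB2, SNAI2 and TWIST1, which encode transcription factors, AXL, which encodes a receptor, and VIM, CDH2, FN1 and SPARC, which encode structural and matrix proteins. They were chosen by name, as the rows of the gene table that carry these symbols, and each symbol matched 1 of 57905 rows. The choice was made with earlier results of these data known. All 9 reached a mean of 1 TPM (transcript level per length, scaled to a total of 1000000 in each library) in at least 1 group and were among the 25982 genes tested. CDH2, SPARC and TWIST1 met this minimum only through PC3.

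DU145 and PC3 are established lines from metastases of human prostate cancer. The groups were DU145 that had received a lentivirus with TRIB1, DU145 that had received the empty vector lentivirus, PC3 with the TRIB1 lentivirus and PC3 with the empty vector lentivirus, with 2 libraries of total RNA in each. All 4 groups therefore carry a lentiviral vector, and the labels do not say whether the cells were a pool or a clone, which promoter drove TRIB1, or whether the replicates were separate cultures. The spread behind each p-value is thus that of the libraries and may be technical. Each line was compared with its own control to ask what changes when TRIB1, a pseudokinase that guides proteins to the ubiquitin ligase COP1, is raised.

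In an epithelial-mesenchymal transition an epithelial cell loosens its junctions, takes on a more migratory shape and changes its intermediate filaments, cadherins and matrix. ZEB1, ZEB2 and SNAI2 are DNA-binding repressors that bind E-box elements in the promoters of epithelial genes such as CDH1, and TWIST1 is a basic helix-loop-helix factor that acts in the same programme. VIM (vimentin), CDH2 (N-cadherin) and FN1 (fibronectin) are among its most used markers, and in prostate cancer lines a mix of epithelial and mesenchymal markers is common.

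The promoters of the 4 genes whose transcripts passed the test in a comparison of TRIB1 with control are shown because these genes moved in different directions. Each window holds the 250 bases before the first start that RefSeq lists for the gene on GRCh38.p14, written 5′ to 3′ on the strand of the gene. Capitals mark the motifs searched on both strands. These were the E-box bound by ZEB and Snail factors (CAGGTG or CACCTG), the AP-1 motif TGANTCA, the cyclic AMP response element TGACGTCA and the GC box (GGGCGG or CCGCCC), and matches may overlap. VIM lies at chr10:17227991-17228240 (plus strand), FN1 at chr2:215436069-215436318 (minus strand), SPARC at chr5:151686916-151687165 (minus strand) and AXL at chr19:41218973-41219222 (plus strand).
VIM: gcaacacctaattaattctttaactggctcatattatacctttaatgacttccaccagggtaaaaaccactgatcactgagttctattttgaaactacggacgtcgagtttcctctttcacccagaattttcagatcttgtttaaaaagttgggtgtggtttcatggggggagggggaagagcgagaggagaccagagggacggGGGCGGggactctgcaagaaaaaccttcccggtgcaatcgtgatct
FN1: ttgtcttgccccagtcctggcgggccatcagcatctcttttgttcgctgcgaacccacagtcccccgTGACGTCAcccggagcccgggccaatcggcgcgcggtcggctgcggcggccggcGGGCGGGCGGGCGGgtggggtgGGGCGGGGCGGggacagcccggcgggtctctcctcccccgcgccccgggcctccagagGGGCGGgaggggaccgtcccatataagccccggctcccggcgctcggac
SPARC: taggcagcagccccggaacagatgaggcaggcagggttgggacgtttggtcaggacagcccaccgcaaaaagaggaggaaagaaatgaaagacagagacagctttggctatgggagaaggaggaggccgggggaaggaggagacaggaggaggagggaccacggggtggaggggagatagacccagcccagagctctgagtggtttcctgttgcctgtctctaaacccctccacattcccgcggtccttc
AXL: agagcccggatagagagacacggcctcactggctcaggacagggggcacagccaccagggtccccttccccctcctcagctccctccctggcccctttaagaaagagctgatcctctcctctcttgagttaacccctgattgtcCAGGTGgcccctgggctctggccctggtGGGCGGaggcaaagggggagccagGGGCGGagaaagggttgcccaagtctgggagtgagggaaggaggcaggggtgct
The VIM window held 1 GC box, at position -46 from the start. The FN1 window held 1 cyclic AMP response element at -183 and 6 GC boxes, some of them overlapping. The SPARC window held none of the 4 motifs. The AXL window held 1 E-box at -106 and 2 GC boxes, at -78 and -54. Among all 34788 promoter windows of this length, 17.5% held the E-box, 6.59% the AP-1 motif, 1.64% the cyclic AMP response element and 42.6% the GC box. RefSeq windows were matched for 7 of the 9 genes. Among the others, ZEB1 held E-boxes in 2 of its 7 windows, while CDH2, with 2 windows, and ZEB2, with 1, held no E-box. CDH2 held 1 AP-1 motif, at -102 in 1 of its windows. GC boxes were also found in windows of CDH2 and ZEB1, and ZEB2 held none of the 4 motifs. A match is a run of letters and not a measured binding site.

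TRIB1 itself was higher in every TRIB1 library than in every control of the same line. Its level was 69.4 and 62.3 TPM in DU145 TRIB1 libraries, against 10.1 and 7.94 TPM in DU145 controls, and 241 and 245 TPM in PC3 TRIB1 libraries, against 45.1 and 50.8 TPM in PC3 controls. KLK3, which encodes prostate-specific antigen, was near 0 in all 8 libraries (0 to 0.186 TPM). TPM values keep no library totals, so the depth is unknown, and between 19731 and 21335 genes reached 1 TPM per library. On a principal component that held 10.3% of the variance, the second DU145 TRIB1 library stood apart, at -61.7, from the rest of DU145, at 21.5 to 24.9. Changes in DU145 that passed the test but lose it with 1 library left out are named as such.

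**Figure D1:**
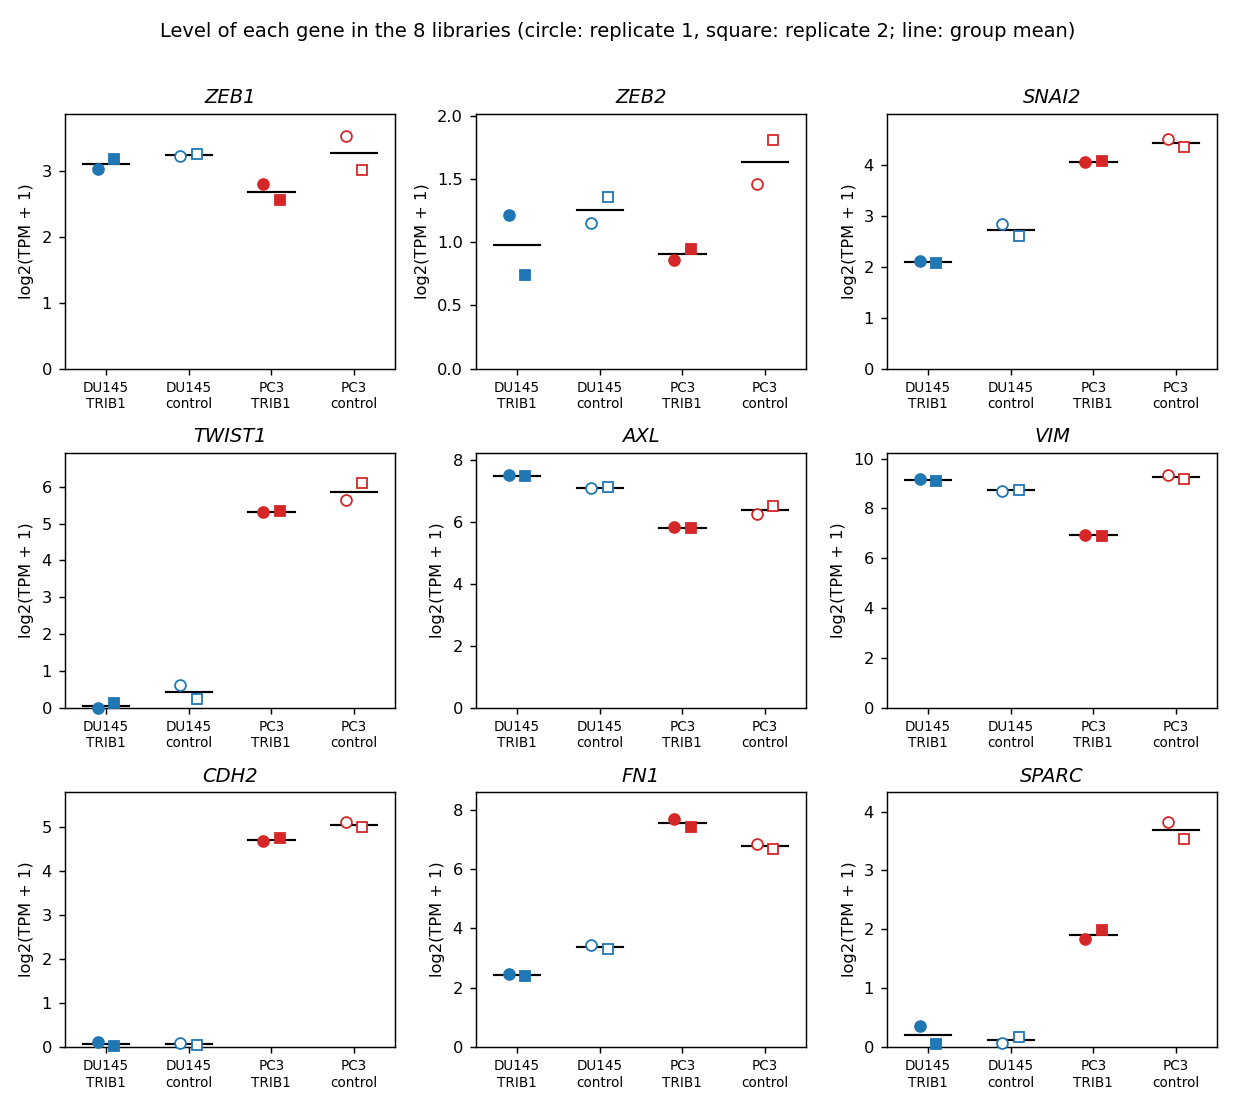
Level of each of the 9 genes as log2(TPM + 1) in the 8 libraries, 1 panel per gene, with TRIB1 libraries as filled symbols, controls as open symbols and the group mean as a line. VIM and SPARC are low in PC3 TRIB1 libraries (119 to 122 and 2.54 to 2.97 TPM), FN1 is highest there (169 and 205 TPM), and CDH2, SPARC and TWIST1 stay below 1 TPM in all 4 DU145 libraries.

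In PC3, 3 of the 9 genes fell with TRIB1 (VIM, SPARC and AXL) and 1 rose (FN1), while the other 5 did not pass the test. Over all genes tested in PC3, 17% passed the test at an adjusted p below 0.05, 9.33% with a fall and 7.67% with a rise. A fall of more than 1 on the log2 scale as well, the size named in the design of the series, was met by VIM and SPARC, and 5.2% of all genes met both conditions in either direction. Unadjusted, the limma test marked all 9 genes at a p below 0.05, and 30.6% of all genes. The median log2 change of the 9 genes was -0.58, and that of all genes was -0.01. In 8 of the 9 genes both TRIB1 libraries lay below both controls and in FN1 both lay above, against 29.8% and 24.5% of all genes. All adjusted p-values here are from limma on log2(TPM + 1) with Benjamini-Hochberg adjustment over all genes tested.

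In DU145, VIM rose and FN1 fell with TRIB1, and the other 7 did not pass the test. Of all genes tested in DU145, 2.72% passed, 0.712% with a rise and 2.01% with a fall. None of the 9 changed by more than 1 on the log2(TPM + 1) scale. FN1 did with pseudocounts of 0.5 and 0.1 (log2 change -1.02 and -1.08, limma adjusted p = 0.0169 and 0.0147). With the pseudocount of 1, 1.12% of all genes passed this size together with the test. At an unadjusted p below 0.05 the same test marked 4 of the 9 genes (VIM, AXL, FN1 and SNAI2) and 17.7% of all genes. The median log2 change of the 9 genes was -0.13, and that of all genes was -0.04. Both TRIB1 libraries lay above both controls in 2 genes (VIM and AXL), against 17.6% of all genes. They lay below both controls in 4 (FN1, SNAI2, ZEB1 and TWIST1), against 29.7% of all genes. CDH2, SPARC and TWIST1 were below 1 TPM in every DU145 library but enter these counts and the median. RNA was taken from whole cultures, so fewer cells that express a gene and less RNA per cell cannot be told apart.

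**Figure D2:**
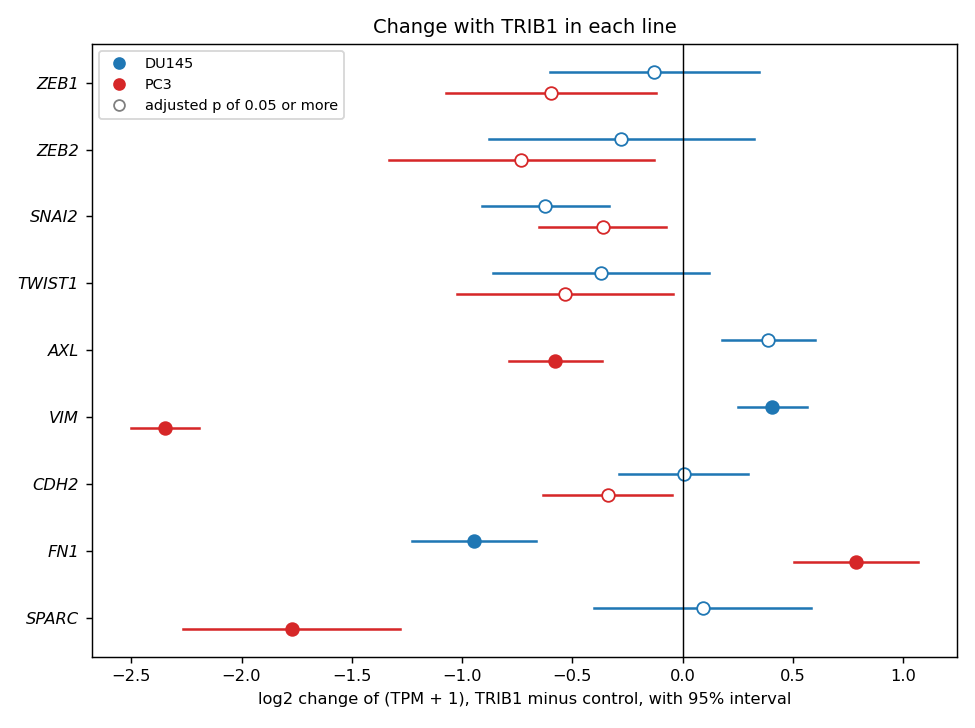
Log2 change of (TPM + 1), TRIB1 minus control, for each gene in DU145 (blue) and PC3 (red), with the 95% interval that is not adjusted for the number of genes tested, and open circles where the adjusted p is 0.05 or more. VIM lies at 0.41 in DU145 and -2.35 in PC3, and FN1 lies at -0.95 in DU145 and 0.79 in PC3. CDH2, SPARC and TWIST1 were below 1 TPM in every DU145 library.

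ZEB1 encodes a zinc finger and homeodomain protein that represses CDH1. It was at 7.18 and 8.13 TPM in DU145 TRIB1 libraries, against 8.34 and 8.55 TPM in DU145 controls. The PC3 levels were 5.97 and 4.91 TPM in TRIB1 libraries, against 10.6 and 7.15 TPM in controls. Both TRIB1 libraries were below both controls in each line, with control libraries of PC3 far apart from each other. The log2 change was -0.60 in PC3 (95% interval -1.07 to -0.12) and did not pass the test (adjusted p = 0.0928, and 0.0337 with protein-coding genes alone). It was -0.34 without the first control (adjusted p = 0.238) and -0.85 without the second (adjusted p = 0.0439). Over all left-out libraries the adjusted p was between 0.0439 and 0.329. In DU145 the log2 change was -0.13, with an interval from -0.60 to 0.35 (adjusted p = 0.806).

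ZEB1-AS1 is transcribed from the opposite strand next to ZEB1 and shares 1197 listed bases with it. It fell in PC3, at 6.51 and 8.52 TPM in TRIB1 libraries, against 16.2 and 23.1 TPM in controls (log2 change -1.27, adjusted p = 0.0171). The fall did not pass the test without either PC3 TRIB1 library or without the second PC3 control, with an adjusted p of up to 0.105. In DU145 it was at 7.54 and 6.78 TPM in TRIB1 libraries, against 6.31 and 4.61 TPM in controls (log2 change 0.35, adjusted p = 0.483). Whether the counting used strand is not given in the sources used here, so reads of ZEB1 and of this partner cannot be told apart where they overlap.

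ZEB2, a close relative of ZEB1, was the lowest of the 4 transcription factor genes in PC3. Its level was 0.817 and 0.930 TPM in PC3 TRIB1 libraries, against 1.75 and 2.51 TPM in PC3 controls. The groups did not overlap, and the log2 change of -0.73 (95% interval -1.33 to -0.13) did not pass the test with all genes (adjusted p = 0.102), but did with protein-coding genes alone (adjusted p = 0.0243). In DU145 it was at 1.32 and 0.674 TPM in TRIB1 libraries, against 1.23 and 1.56 TPM in controls. There the groups overlapped, with the lowest value in the second TRIB1 library, and the log2 change was -0.28 (interval -0.88 to 0.32, adjusted p = 0.617). It was -0.041 without the second TRIB1 library and -0.51 without the first.

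SNAI2 encodes Slug, a zinc finger repressor of the Snail family. In DU145 it was at 3.35 and 3.20 TPM in TRIB1 libraries, against 6.11 and 5.08 TPM in controls. The PC3 levels were 15.6 and 15.8 TPM in TRIB1 libraries, against 21.7 and 19.4 TPM in controls. TRIB1 libraries were below the controls in both lines, without overlap. The log2 change was -0.62 in DU145 (95% interval -0.91 to -0.33, adjusted p = 0.0606) and -0.36 in PC3 (interval -0.65 to -0.07, adjusted p = 0.0936), and neither passed the test. In DU145 it passed with a minimum of 5 TPM (adjusted p = 0.0431) and with protein-coding genes alone (adjusted p = 0.0205), and the adjusted p was between 0.0745 and 0.199 with 1 library left out.

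TWIST1 was the most abundant of the 4 transcription factors in PC3 and the least abundant in DU145. In PC3 it was at 38.8 and 39.7 TPM in TRIB1 libraries, against 48.6 and 67.4 TPM in controls. The TRIB1 libraries were close to each other and below both controls, which were wide apart. The log2 change was -0.53 (95% interval -1.02 to -0.04) and did not pass the test (adjusted p = 0.133). It was -0.30 without the second control and -0.77 without the first. In DU145 it was listed at 0 and at 0.0821 TPM in TRIB1 libraries, against 0.523 and 0.186 TPM in controls, all below 1 TPM.

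AXL encodes a receptor tyrosine kinase that binds the ligand GAS6. Its PC3 level was 55.5 and 54.4 TPM in TRIB1 libraries, against 75.6 and 90.0 TPM in controls. Both TRIB1 libraries were below both controls, and AXL fell by 0.58 on the log2 scale (SE 0.09, adjusted p = 0.0102). The fall did not pass the test without either PC3 TRIB1 library (adjusted p = 0.0630 and 0.0700) or with PC3 fitted alone (adjusted p = 0.0554).

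In DU145, AXL was at 182 and 176 TPM in TRIB1 libraries, against 136 and 137 TPM in controls. The TRIB1 libraries were above the controls, with 1.31-fold the mean. The log2 change of 0.39 had a 95% interval from 0.18 to 0.60 and did not pass the test (adjusted p = 0.0854). It passed with protein-coding genes alone (adjusted p = 0.0335) and without either PC3 control (adjusted p = 0.0245 and 0.0246), while the adjusted p was up to 0.288 when a DU145 library was left out. An unnamed antisense gene, ENSG00000269652, shares 626 listed bases with AXL and was at 9.94 and 3.38 TPM in PC3 TRIB1 libraries, against 16.1 and 27.3 TPM in PC3 controls.

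Of the 4 other genes of the AXL system, in PC3 GAS6 and TYRO3 fell and MERTK rose. GAS6, the AXL ligand, averaged 20.9 ± 0.283 TPM in PC3 TRIB1 libraries and 31.8 ± 0.566 TPM in controls (SD, n = 2 each), a log2 change of -0.58 (adjusted p = 0.00471). TYRO3, a sister receptor, averaged 12.1 TPM in TRIB1 libraries and 18.2 TPM in controls (log2 change -0.55, adjusted p = 0.0216, up to 0.101 with 1 library left out). MERTK, the other sister receptor, averaged 4.65 TPM in TRIB1 libraries and 2.12 TPM in controls (log2 change 0.85, adjusted p = 0.0125, and 0.0674 without the first PC3 TRIB1 library). PROS1, a ligand of TYRO3 and MERTK, had a log2 change of 0.11 (adjusted p = 0.7495). In DU145 the limma test marked 0 of these 4 genes, and 1 at an unadjusted p below 0.05. Their log2 changes were 0.25 for TYRO3, 0.38 for MERTK, -0.04 for GAS6 and -0.18 for PROS1.

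VIM encodes vimentin, the intermediate filament protein of mesenchymal cells. In PC3 it was at 122 and 119 TPM in TRIB1 libraries, against 647 and 589 TPM in controls. The libraries of each group were close together and the groups lay far apart. VIM averaged 121 ± 2.53 TPM in TRIB1 libraries and 618 ± 41.2 TPM in controls (SD, n = 2 each), a 5.12-fold lower level. The log2 change was -2.35 (SE 0.06, 95% interval -2.50 to -2.19, adjusted p = 0.000725), which ranked 87 from the lowest of the 25982 genes. With any 1 library left out the adjusted p was between 0.0054 and 0.00847.

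In DU145, VIM moved the other way, at 577 and 543 TPM in TRIB1 libraries, against 414 and 429.7 TPM in controls. Its mean was 1.33-fold higher with TRIB1, and it rose by 0.41 on the log2 scale (SE 0.06, adjusted p = 0.0369). The rise did not pass the test without any 1 of the 4 DU145 libraries or of the 2 PC3 TRIB1 libraries, with an adjusted p of up to 0.185, nor with genes of all levels (adjusted p = 0.0555), with DU145 fitted alone (adjusted p = 0.100) or with the replicate number as a block (adjusted p = 0.0704). VIM-AS1, an antisense gene near VIM, was at 0.695 to 3.31 TPM and did not pass the test in either line. Its listed interval does not overlap that of VIM, but whether the listed intervals span the whole genes was not tested. The strand setting of the counting is not given in the sources, and whether VIM and VIM-AS1 share reads was not tested. The interval listed for VIM, chr10:17270258-17271949, lies away from its GRCh38.p14 promoter window. Those of FN1, SPARC and AXL lie away from theirs too, so these are not GRCh38.p14 positions. The table does not state the build of its intervals.

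CDH2 encodes N-cadherin, the adhesion protein that often replaces E-cadherin in mesenchymal cells. The CDH2 level in PC3 was 24.8 and 25.8 TPM in TRIB1 libraries, against 33.6 and 31.0 TPM in controls. TRIB1 libraries were lower without overlap, and the log2 change of -0.34 (95% interval -0.63 to -0.05) did not pass the test (adjusted p = 0.114). In DU145 it stayed at or below 0.0803 TPM in every library. An unnamed antisense gene, ENSG00000227279, shares 9169 listed bases with CDH2 and was at 3.47 and 2.998 TPM in PC3 TRIB1 libraries, against 1.098 and 1.73 TPM in PC3 controls.

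CDH1, which encodes E-cadherin, rose in PC3, averaging 104 ± 4.30 TPM in TRIB1 libraries and 35.3 ± 2.45 TPM in controls (SD, n = 2 each; log2 change 1.53, adjusted p = 0.00199). The ratio of the CDH2 level to the CDH1 level was 0.232 and 0.256 in PC3 TRIB1 libraries, against 0.906 and 0.925 in PC3 controls. The ratio of the VIM level to that of the epithelial keratin gene KRT8 was 0.177 and 0.175 in PC3 TRIB1 libraries, against 2.78 and 2.49 in PC3 controls. In DU145 the VIM to KRT8 ratio was 0.859 and 0.862 in TRIB1 libraries, against 0.594 and 0.592 in controls.

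FN1 encodes fibronectin, a glycoprotein of the extracellular matrix. The FN1 level in PC3 was 205 and 169 TPM in TRIB1 libraries, against 113 and 102 TPM in controls. Both TRIB1 libraries were above both controls, and FN1 averaged 187 ± 25.8 TPM with TRIB1 and 108 ± 8.06 TPM in controls (SD, n = 2 each), a 1.74-fold higher level. It rose by 0.79 on the log2 scale (SE 0.11, adjusted p = 0.00930), and with any 1 library left out the adjusted p was between 0.0221 and 0.0498.

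In DU145, FN1 was at 4.45 and 4.30 TPM in TRIB1 libraries, against 9.75 and 8.97 TPM in controls. The TRIB1 level was 2.14-fold lower, without overlap, and FN1 fell by 0.95 on the log2 scale (SE 0.11, adjusted p = 0.0196). The fall did not pass the test without any 1 of the 4 DU145 libraries, with an adjusted p of up to 0.116, or with DU145 fitted alone (adjusted p = 0.0991).

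SPARC encodes osteonectin, a collagen-binding matricellular protein. In PC3 it was at 2.54 and 2.97 TPM in TRIB1 libraries, against 13.1 and 10.6 TPM in controls. The groups did not overlap, and SPARC averaged 2.75 ± 0.300 TPM with TRIB1 and 11.9 ± 1.75 TPM in controls (SD, n = 2 each), a 4.31-fold lower level. It fell by 1.77 on the log2 scale (SE 0.20, 95% interval -2.26 to -1.28, adjusted p = 0.00479). With a pseudocount of 0.1 in place of 1 the log2 change was -2.06 and did not pass the test (adjusted p = 0.0620). In DU145, SPARC was at 0.283 and 0.0341 TPM in TRIB1 libraries, against 0.0488 and 0.115 TPM in controls, and the groups overlapped.

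The change with TRIB1 differed between the lines for VIM, SPARC, AXL and FN1. In this test of the difference, the change in DU145 minus the change in PC3, VIM, SPARC and AXL were higher in DU145 and FN1 was lower, while 9.37% of all genes passed, 4.01% higher in DU145 and 5.36% lower. The difference was 2.75 for VIM (95% interval 2.53 to 2.97, adjusted p = 0.000834) and -1.73 for FN1 (interval -2.13 to -1.34, adjusted p = 0.00567). It was 1.86 for SPARC (interval 1.17 to 2.56, adjusted p = 0.0180) and 0.97 for AXL (interval 0.67 to 1.27, adjusted p = 0.0111). The differences of SPARC and AXL did not pass the test when any of the DU145 controls or PC3 TRIB1 libraries was left out, with an adjusted p of up to 0.0651 for SPARC and 0.0547 for AXL. SPARC was below 1 TPM in DU145, so its difference comes from the change in PC3, and with a pseudocount of 0.1 it did not pass (2.41, adjusted p = 0.132).

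For the other 5 genes the difference did not pass the test. Its interval ran from -0.20 to 1.14 for ZEB1, from -0.40 to 1.31 for ZEB2, from -0.67 to 0.15 for SNAI2, from -0.53 to 0.86 for TWIST1 and from -0.07 to 0.76 for CDH2. A difference of more than 1 on the log2 scale lies inside the intervals of ZEB1 and ZEB2. CDH2 and TWIST1 were below 1 TPM in every DU145 library, where the pseudocount of 1 compresses any change. Their intervals therefore cannot exclude such a difference.

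Before any change with TRIB1, the controls of the lines differed in most of these genes. Control PC3 was higher than control DU145 in 6 of the 9 (VIM, CDH2, FN1, SPARC, SNAI2 and TWIST1) and lower in AXL, while 18.6% of all genes were higher and 28.4% lower. Because CDH2, SPARC and TWIST1 were tested only through their PC3 levels, they had to differ between the lines, and the count is a description. A log2 difference over 1 as well was met by CDH2, FN1, SPARC, SNAI2 and TWIST1, and by 25.4% of all genes. Both PC3 controls lay above both DU145 controls in 7 of the 9 genes and below them in 1, against 28.2% and 42.4% of all genes. TWIST1 averaged 58.0 ± 13.3 TPM in PC3 controls and 0.355 TPM in DU145 controls, a log2 difference of 5.44 that ranked 53 from the highest. CDH2 averaged 32.3 ± 1.77 TPM in PC3 controls and 0.0448 TPM in DU145 controls (log2 difference 4.99). FN1 was 11.5-fold higher in PC3 controls (log2 difference 3.39, adjusted p = 1.156e-05) and SNAI2 3.67-fold higher (log2 difference 1.71, adjusted p = 0.000124).

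VIM and AXL were abundant in both lines. VIM had a log2 difference of 0.55 (adjusted p = 0.000898) and AXL of -0.72 (adjusted p = 0.00107), PC3 minus DU145. ZEB1 had a log2 difference of 0.04, with an interval from -0.43 to 0.51, and ZEB2 of 0.38, with an interval from -0.22 to 0.98, and neither passed the test. Scaling by the median of ratios moved the median of all genes in this comparison by 0.17, with VIM at 0.77 and AXL at -0.50, and all 9 genes kept their side of the test.

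**Figure D3:**
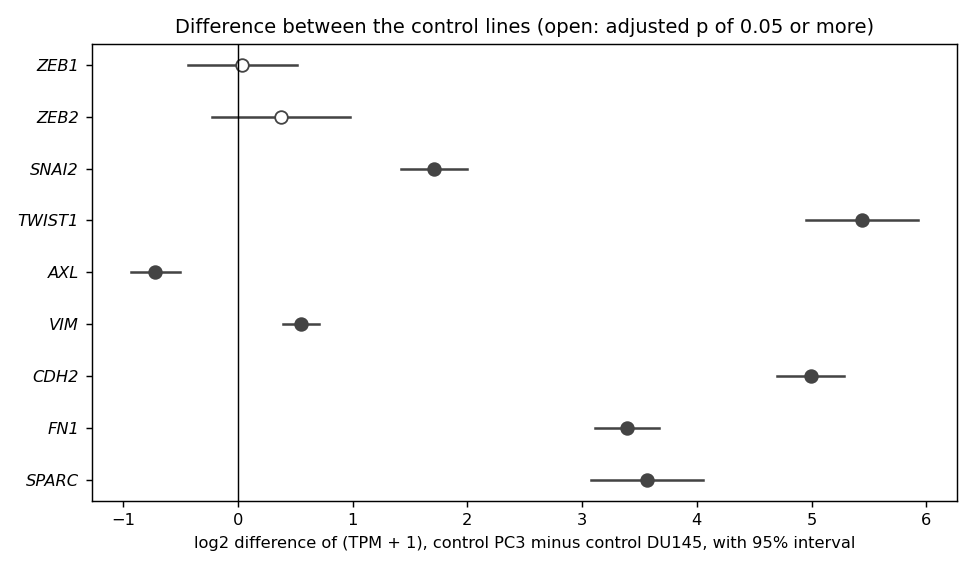
Log2 difference of (TPM + 1), control PC3 minus control DU145, for each gene with its 95% interval, with open circles where the adjusted p is 0.05 or more. TWIST1 (5.44) and CDH2 (4.99) lie farthest to the right, AXL (-0.72) is the gene left of 0, and the intervals of ZEB1 and ZEB2 include 0.

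TPM is per length, so levels can be ordered between genes, but here the unit is inferred and the lengths used are not given. Ordered by these values, the 9 genes differed in rank between the groups. In PC3 TRIB1 libraries the order was FN1, VIM, AXL, TWIST1, CDH2, SNAI2, ZEB1, SPARC and ZEB2, with no overlap between neighbours. In PC3 controls it was VIM, FN1, AXL, TWIST1, CDH2, SNAI2, SPARC, ZEB1 and ZEB2. There SPARC (10.6 and 13.1 TPM) and ZEB1 (7.15 and 10.6 TPM) nearly met. In DU145 TRIB1 libraries the order was VIM, AXL, ZEB1, FN1, SNAI2 and ZEB2, and in DU145 controls VIM, AXL, FN1, ZEB1, SNAI2 and ZEB2, with CDH2, SPARC and TWIST1 below 1 TPM in both. VIM made up 25.9% and 27.5% of the summed TPM of the 9 genes in PC3 TRIB1 libraries, against 67.0% and 64.1% in PC3 controls, and 71.9% to 74.4% in DU145.

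Of 12 other tested regulators of the transition, 1 rose and 1 fell in PC3, a share near the 17% of all genes that passed there, with a median log2 change of 0.03. ETS1, an ETS family factor, rose in PC3, averaging 93.8 TPM in TRIB1 libraries and 70.0 TPM in controls (log2 change 0.42, adjusted p = 0.0122, and up to 0.0626 without a PC3 TRIB1 library). TWIST2, the relative of TWIST1, averaged 0.304 TPM in PC3 TRIB1 libraries and 1.03 TPM in controls (log2 change -0.64, adjusted p = 0.0497), and did not pass with any 1 library left out. In DU145 1 of the 12 fell, SOX9, at a mean of 4.81 TPM in TRIB1 libraries and 8.94 TPM in controls (log2 change -0.78, adjusted p = 0.0301, and up to 0.134 with 1 library left out). TWIST2 was at 13.22 and 11.97 TPM in DU145 TRIB1 libraries, against 17.21 and 14.22 TPM in DU145 controls. Its change in DU145 did not pass the test. SNAI1, the Snail gene, had log2 changes of -0.19 in DU145 (adjusted p = 0.694) and -0.02 in PC3 (adjusted p = 1.0).

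Of 20 epithelial genes known as targets of repression by ZEB and Snail factors, 15 rose in PC3 and 5 did not pass the test. The median log2 change of the 20 was 0.87, against -0.01 for all genes. This list and the others were chosen with earlier results of these data known, so their counts are descriptions. For comparison with each list, 7.67% of all genes rose and 9.33% fell in PC3. In DU145 0.712% of all genes rose and 2.01% fell. CLDN7, a tight junction claudin, averaged 126 TPM in PC3 TRIB1 libraries and 52.1 TPM in controls (log2 change 1.26, adjusted p = 0.000959). EPCAM, an epithelial adhesion protein, averaged 181 TPM in TRIB1 libraries and 52.1 TPM in controls (log2 change 1.78, adjusted p = 0.00110). CRB3, a protein of apical polarity, averaged 68.2 TPM in TRIB1 libraries and 19.6 TPM in controls (log2 change 1.75, adjusted p = 0.00108). The count was 8 and 9 without the first and the second PC3 TRIB1 library. In DU145 2 of the 20 fell, and neither passed in every fit with 1 library left out. These were MUC1 (log2 change -0.70, adjusted p = 0.0154) and CLDN7 (-0.53, adjusted p = 0.0238). The other 18 did not pass the test, and the median of the 20 was -0.23. With 1 library left out between 0 and 3 of them fell.

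Of 12 tested regulators of epithelial identity, 8 rose in PC3 and 4 did not pass the test, with a median log2 change of 1.15. GRHL2, a grainyhead factor, averaged 16.2 TPM in PC3 TRIB1 libraries and 3.95 TPM in controls (log2 change 1.80, adjusted p = 0.00278). ESRP1, an epithelial splicing regulator, averaged 96.7 TPM in TRIB1 libraries and 33.3 TPM in controls (log2 change 1.51, adjusted p = 0.00229). The count was 5 without either PC3 TRIB1 library. In DU145 1 of them fell, ELF3, an epithelial ETS factor, with a mean of 40.5 TPM in TRIB1 libraries and 154 TPM in controls (log2 change -1.90, adjusted p = 0.00206).

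Among 9 other cadherins and catenins, 6 rose in PC3 and 1 fell, with a median log2 change of 0.49. CDH1, described above, is among these 6 and also among the ZEB and Snail targets that rose. CDH3, which encodes P-cadherin, rose in PC3, averaging 88.2 TPM in TRIB1 libraries and 24.7 TPM in controls (log2 change 1.80, adjusted p = 0.00202). CDH11, a cadherin of mesenchymal and bone-forming cells, fell, averaging 74.1 TPM in TRIB1 libraries and 171 TPM in controls (log2 change -1.20, adjusted p = 0.00325). In DU145 1 of the 9 fell, CDH3, at 40.5 TPM in TRIB1 libraries and 87.5 TPM in controls (log2 change -1.10, adjusted p = 0.0247, and up to 0.145 with 1 library left out).

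**Figure D4:**
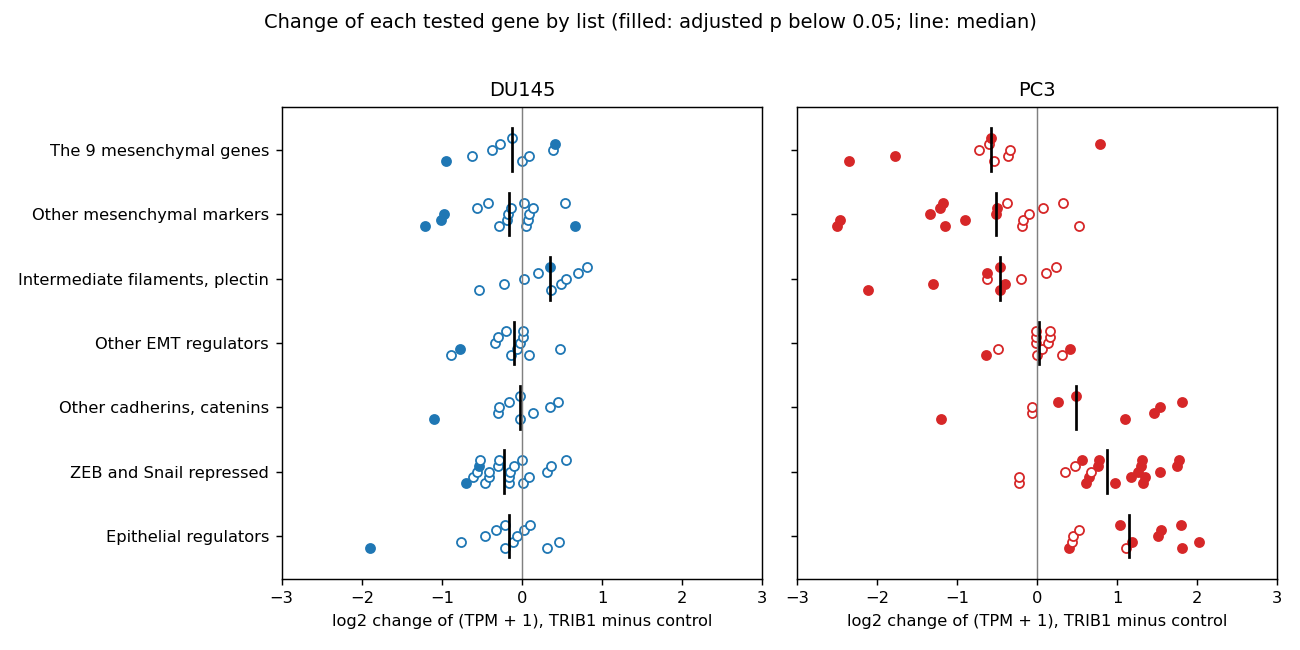
Log2 change of (TPM + 1), TRIB1 minus control, for each tested gene of 7 lists in DU145 and PC3, with filled circles where the adjusted p is below 0.05 and a vertical line at the median of the list. In PC3 the medians are -0.58 for the 9 mesenchymal genes, -0.51 for other mesenchymal markers and 1.15 for epithelial regulators, while in DU145 these 3 medians lie between -0.16 and -0.13.

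Of 10 tested genes of intermediate filaments and the linker plectin, VIM apart, 6 fell in PC3 and 4 did not pass the test, with a median log2 change of -0.47. NES, which encodes nestin, averaged 13.9 ± 0.568 TPM in PC3 TRIB1 libraries and 63.4 ± 7.41 TPM in controls (SD, n = 2 each; log2 change -2.11, adjusted p = 0.000959). NEFL, a neurofilament gene, averaged 47.0 TPM in TRIB1 libraries and 72.9 TPM in controls (log2 change -0.62, adjusted p = 0.00725). LMNA, which encodes lamin A and C of the nuclear envelope, fell in PC3 (log2 change -0.40, adjusted p = 0.00940, and up to 0.0633 without a PC3 TRIB1 library) and rose in DU145 (0.35, adjusted p = 0.0457). The PC3 count was 2 without either PC3 TRIB1 library and 3 without either DU145 control. In DU145 LMNA was the 1 gene of the list that passed, and it did not pass with any 1 of 6 libraries left out.

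Of 16 other tested mesenchymal markers, 9 fell in PC3 and 7 did not pass the test, with a median log2 change of -0.51. COL5A1, a fibrillar collagen gene, averaged 5.23 TPM in PC3 TRIB1 libraries and 34.3 TPM in controls (log2 change -2.50, adjusted p = 0.000734). COL6A3, a chain of collagen VI, averaged 11.03 TPM in TRIB1 libraries and 65.1 TPM in controls (log2 change -2.46, adjusted p = 0.000949). MMP14, a membrane-bound matrix protease, averaged 120.3 TPM in TRIB1 libraries and 272 TPM in controls (log2 change -1.17, adjusted p = 0.00166). The count was 5 without the second PC3 TRIB1 library.

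In DU145 3 of these 16 fell and 1 rose. TGFBI, a matrix protein induced by TGF-beta, averaged 182 TPM in DU145 TRIB1 libraries and 368 TPM in controls (log2 change -1.01, adjusted p = 0.00424). COL5A1 averaged 6.33 TPM in TRIB1 libraries and 13.5 TPM in controls (log2 change -0.98, adjusted p = 0.00904). LOX, which crosslinks collagen, averaged 1.29 TPM in TRIB1 libraries and 4.29 TPM in controls (log2 change -1.21, adjusted p = 0.0379). LOX and the 1 gene that rose, S100A4 (log2 change 0.67, adjusted p = 0.0427), did not pass with any library left out.

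Of 9 tested matricellular genes other than SPARC, 2 rose and 2 fell in PC3. THBS1, which encodes thrombospondin 1, averaged 598 TPM in PC3 TRIB1 libraries and 249 TPM in controls (log2 change 1.27, adjusted p = 0.00193). CCN1 was the other gene that rose, averaging 210 TPM in PC3 TRIB1 libraries and 152 TPM in controls. The rise of CCN1 did not pass in every fit with 1 library left out. CCN2 (log2 change -0.79, adjusted p = 0.00318) and TNC, which encodes tenascin C (-0.54, adjusted p = 0.0109, and 0.0507 without the second PC3 TRIB1 library), fell. In DU145 THBS1 (log2 change 0.73, adjusted p = 0.0275) and CCN2 (0.43, adjusted p = 0.0494) rose and TNC fell, averaging 4.34 TPM in TRIB1 libraries and 10.5 TPM in controls (log2 change -1.11, adjusted p = 0.00534). In DU145 the rise of CCN2 did not pass with any 1 of the 8 libraries left out (adjusted p of up to 0.168), and that of THBS1 not with any 1 of 6 (up to 0.143).

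Of 9 tested genes for fibronectin receptors and crosslinkers, 3 fell in DU145, where FN1 also fell, and 6 did not pass the test. TGM2, which encodes transglutaminase 2, averaged 89.4 TPM in DU145 TRIB1 libraries and 216 TPM in controls (log2 change -1.26, adjusted p = 0.00441). SDC4, a heparan sulfate co-receptor, averaged 101 TPM in TRIB1 libraries and 193 TPM in controls (log2 change -0.93, adjusted p = 0.00534). SDC2, a related syndecan, averaged 5.11 TPM in TRIB1 libraries and 16.2 TPM in controls (log2 change -1.53, adjusted p = 0.0265, and up to 0.144 with 1 library left out). In PC3 the integrin genes ITGB3 (log2 change -0.69, adjusted p = 0.0111) and ITGA5 (-0.37, adjusted p = 0.0159) fell, while ITGB5 (0.31, adjusted p = 0.0331) and SDC2 (0.82, adjusted p = 0.0455) rose. With 1 library left out the adjusted p was up to 0.0568 for ITGB3, 0.0655 for ITGA5, 0.129 for ITGB5 and 0.191 for SDC2.

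Markers of other cell types that express these mesenchymal genes were measured in the same libraries. The summed level of 10 fibroblast markers was 53.8 to 56.6 TPM in DU145 TRIB1 libraries, against 65.6 to 69.8 TPM in DU145 controls, and 42.7 to 46.7 TPM in PC3 TRIB1 libraries, against 60.2 to 71.6 TPM in PC3 controls. COL1A1 made up most of it, at 40.4 and 36.0 TPM in PC3 TRIB1 libraries, against 57.4 and 69.0 TPM in PC3 controls (log2 change -0.71, adjusted p = 0.0114, and up to 0.0754 with 1 library left out). Of the other 9, COL1A2, COL3A1, FAP, POSTN and THY1 were at or below 0.397 TPM in all 8 libraries, DCN at or below 1.15 TPM and PDGFRA at 0.531 to 1.28 TPM. PDGFRB was at 2.33 to 2.97 TPM in DU145 and at 0.0506 to 1.30 TPM in PC3. LUM was at 3.60 and 2.93 TPM in PC3 TRIB1 libraries, against 0.456 and 1.26 TPM in PC3 controls (log2 change 1.23, adjusted p = 0.0315, and up to 0.109 with 1 library left out). The sum of 6 leukocyte markers, mostly CD68, was 33.9 to 35.0 TPM in PC3 TRIB1 libraries, against 19.9 to 23.9 TPM in PC3 controls, and 9.36 to 10.2 TPM in DU145 TRIB1 libraries, against 28.8 to 34.8 TPM in DU145 controls. PTPRC, the pan-leukocyte marker, was at 0.151 to 0.467 TPM. The sum of 4 endothelial markers was 0.388 to 0.590 TPM in DU145 and 2.76 to 3.88 TPM in PC3. The part of these marker levels in the changes of the 9 genes was not tested.

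The genes whose levels ran most like each of the 9 over the 8 libraries were found by Pearson's r on log2(TPM + 1). The 8 points share 2 lines and 4 groups, so a high r mostly describes a pattern of group levels. VIM ran closest to ASB13 (r = 0.995) and DGKG (r = 0.993), FN1 to AHR (r = 0.999) and SEMA3A (r = 0.998), and SPARC to CKAP4 (r = 0.997) and FKBP1A (r = 0.995). AXL ran closest to GPC1 (r = 0.997) and EPHX1 (r = 0.997), and SNAI2 to COL5A2 (r = 0.998) and TNC (r = 0.997). TWIST1 ran closest to HOMER3 (r = 0.999) and ADAM19 (r = 0.999), and CDH2 to TSPYL5 and ZC4H2. ZEB1 (ORMDL1, r = 0.980, and NBPF24) and ZEB2 (SLX1A, r = 0.979, and MTFP1) had the lowest such values. Among the 9 genes themselves, CDH2 and TWIST1 had an r of 0.997 and FN1 and AXL an r of -0.976.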

How the data were processed

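Total RNA of 8 libraries was sequenced, and 1 deposited table lists 57905 genes with 8 columns of values by the authors. The deposited values were taken as TPM because each column sums to 1000000 and the smallest values vary from gene to gene, and this unit is an inference. Per the submitters' processing notes, hg38, TopHat2 2.0.14, edgeR, DESeq and HTSeq were used. What made the TPM, the annotation and the strand setting is not given in the sources, and the depth is unknown. TPM are shares of a fixed total, so genes that take more of it lower the others.

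The values deposited by the authors were taken as log2(TPM + 1), which understates changes of low genes, and the 25982 genes whose mean reached 1 TPM in some group were tested with limma 3.58.1 in R 4.3.3, with a mean-variance trend. All 8 libraries entered 1 fit of 4 group means, with 4 residual and 1.89 prior degrees of freedom. Rose, fell and passed mean an adjusted p below 0.05. Groups and replicate numbers came from the sample titles. Alternatives were other pseudocounts, filters and scalings, 1 line fitted alone, protein-coding genes alone, a replicate block and each library left out.

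The 9 genes and the lists were chosen with earlier results of these data known. Named beside the 9 genes are, for each list and line, up to 3 passing genes with the smallest p, set genes such as CDH1, SNAI1, TWIST2 and the AXL family, and the 2 genes of at least 5 TPM most like each of the 9. Passing genes named beyond these (CCN1, S100A4, and SDC2 in PC3) were chosen after their values were seen. Some genes that the rule takes are not reported here. Promoters are from RefSeq on GRCh38.p14. Listed intervals were not converted between builds.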

Additional observations from a re-analysis of the deposited data

Results flagged for a closer look

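For 4 of the 9 genes the change with TRIB1 differed between DU145 and PC3 by the limma test of the difference itself, each given as the change in DU145 minus the change in PC3 on the log2(TPM + 1) scale, and 9.37% of all genes passed this test. The difference was 2.75 for VIM, whose 2 TRIB1 libraries lay above both controls in DU145 and below both in PC3. It was -1.73 for FN1, with TRIB1 libraries below both controls in DU145 and above both in PC3. It was 0.97 for AXL, with TRIB1 libraries above both controls in DU145 and below both in PC3. It was 1.86 for SPARC, which was below 1 TPM in all DU145 libraries. The differences of SPARC and AXL did not pass when any of 4 libraries was left out (adjusted p of up to 0.0651 and 0.0547), while those of VIM and FN1 passed.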

How the results depend on the processing

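Over 539 alternative values of single genes, 499 kept direction and side of the test, 27 kept direction but no longer passed, 8 newly passed and 5 changed sign. The sign changes were in values that did not pass. The TWIST1 difference (DU145 minus PC3), 0.16 as reported, was -1.10 and -0.095 with pseudocounts of 0.1 and 0.5, and -0.016 and -0.067 without the second DU145 control and the second PC3 control (range with 1 library left out -0.067 to 0.40). The ZEB1 difference between controls (PC3 minus DU145), 0.04 as reported, was -0.21 without the first PC3 control (range -0.21 to 0.29). The cause was not tested.

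The count of genes higher in DU145, 1 as reported, was 0 without a filter and with DU145 alone, 2 with protein-coding genes alone, and 0 to 2 with 1 library left out. The count lower in DU145, 1 as reported, was 2 with a minimum of 5 TPM, 0 with DU145 alone, 2 with protein-coding genes alone and 0 to 1 with 1 library left out. The count lower in PC3, 3 as reported, was 5 with protein-coding genes alone and 2 to 4 with 1 library left out. The count of differences higher in DU145, 3 as reported, was 1 to 3. With 1 library left out, the lone library of its group was assumed to vary like the others. ZEB2 has no value at the minimum of 5 TPM.

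Replicate numbers did not pair the libraries, with correlations of -0.042 to 0.014 between groups. With the replicate number as a block the count higher in DU145 was 0 (VIM, adjusted p = 0.0704), and the other counts of the 9 genes were the same. Depth is unknown, and each group has 2 libraries.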
